A study of Mus musculus with 167 samples.

Results

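The constitutive hepatic Cyp2c genes are Cyp2c29, Cyp2c37, Cyp2c38, Cyp2c39, Cyp2c50, Cyp2c54 and Cyp2c70, cytochrome P450 genes of mouse chromosome 19. They were found as the probe sets that the array's annotation assigns to these symbols, and for each gene the probe set with the highest mean would have been kept. Each of the 7 genes had 1 such probe set with no other symbol, and all 7 were among the 12623 genes tested, of 18194 with a probe set of 1 symbol. Their levels were followed in male C57BL/6 mouse liver without drug and under phenobarbital, a sedative that activates liver xenobiotic receptors, in 3 genotypes.

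The wild type carried the mouse receptors CAR (gene Nr1i3) and PXR (Nr1i2), the knock-out line (CARKO -PXRKO) lacked both, and the humanized line (CARh - PXRh) carried human CAR and PXR in their place. All mice came from TaconicArtemis and were 9 to 11 weeks old at the start. The treated arm received phenobarbital in the drinking water for 13 weeks, at 0.05% (wt/vol) per the protocol text, which also lists lower concentrations and a start at another age, while no sample label gives its own dose. Treated and untreated mice of each genotype were sampled after 1, 7, 14, 28 and 91 days of dosing and at day 119, when 4 weeks of recovery had passed, with 3 to 5 animals in each of the 36 groups. Transcripts of the human receptors were not analysed here.

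CYP2C enzymes are haem proteins of the endoplasmic reticulum that oxidise drugs, steroids and fatty acids. Several of the mouse enzymes, among them CYP2C29, CYP2C37, CYP2C38, CYP2C50 and CYP2C54, turn arachidonic acid into epoxides that act as local lipid mediators, CYP2C39 oxidises retinoic acid, and CYP2C70 makes the muricholic acids that set mouse bile acids apart from human ones. CAR and PXR bind DNA with the retinoid X receptor and raise drug-metabolising genes, Cyp2b10 first among them, when phenobarbital or other compounds activate them.

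In RefSeq's gene order, Cyp2c37, Cyp2c54 and Cyp2c50 lie next to each other with Cyp2c70 directly after them, while Cyp2c29, Cyp2c39 and Cyp2c38 lie earlier in the cluster and are separated from them by Cyp2c67, Cyp2c68, Cyp2c40 and Cyp2c69. The 250 bases before the start site are shown for 4 members: Cyp2c37 and Cyp2c50, whose levels moved together, Cyp2c29, which rose with a different pattern, and Cyp2c70, which did not pass the test under phenobarbital. They are from RefSeq, build GRCm38.p6, 5′ to 3′ on the gene's strand. Capitals mark matches on either strand to the nuclear receptor half-sites AGGTCA and AGTTCA, the HNF4 element CAAAGTNCA, the C/EBP element TTGCNNAA and the TATA box TATAAA.
Cyp2c37, chr19:39992174-39992423, plus strand: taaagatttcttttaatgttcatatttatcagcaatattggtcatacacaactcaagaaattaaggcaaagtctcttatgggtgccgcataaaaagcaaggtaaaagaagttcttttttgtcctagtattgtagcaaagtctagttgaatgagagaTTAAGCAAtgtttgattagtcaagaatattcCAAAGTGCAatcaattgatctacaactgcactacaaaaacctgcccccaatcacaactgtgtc
Cyp2c50, chr19:40089429-40089678, plus strand: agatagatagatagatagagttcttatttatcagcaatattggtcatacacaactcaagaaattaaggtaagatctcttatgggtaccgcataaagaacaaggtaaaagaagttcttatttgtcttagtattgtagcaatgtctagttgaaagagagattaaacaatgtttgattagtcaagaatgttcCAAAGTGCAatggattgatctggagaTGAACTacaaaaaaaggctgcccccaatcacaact
Cyp2c29, chr19:39286835-39287084, plus strand: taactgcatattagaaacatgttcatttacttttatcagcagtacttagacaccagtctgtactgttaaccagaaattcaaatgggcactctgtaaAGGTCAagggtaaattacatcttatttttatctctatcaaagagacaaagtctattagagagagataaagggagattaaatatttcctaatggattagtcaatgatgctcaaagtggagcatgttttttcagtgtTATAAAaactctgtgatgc
Cyp2c70, chr19:40187287-40187536, minus strand: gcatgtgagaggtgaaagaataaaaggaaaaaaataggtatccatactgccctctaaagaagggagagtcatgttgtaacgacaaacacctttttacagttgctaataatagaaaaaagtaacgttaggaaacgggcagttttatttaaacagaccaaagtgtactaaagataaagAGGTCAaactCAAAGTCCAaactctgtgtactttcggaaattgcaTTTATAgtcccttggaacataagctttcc
In a global alignment the Cyp2c37 and Cyp2c50 stretches were identical at 84.3% of columns, against 54.5% for Cyp2c29 and Cyp2c37 and 48.1% for Cyp2c37 and Cyp2c70. CAAAGTNCA, bound by the liver factor HNF4, was found in 3 of the 7 stretches held for 6 members (Cyp2c39 has 2): from base -63 to -55 before the start of Cyp2c37, from -61 to -53 in Cyp2c50 and from -64 to -56 in Cyp2c70. Of all 32851 stretches of this length, 1.19% held that element. AGGTCA occurred in 3 of the 7 member stretches, against 14% of all, AGTTCA in 2, against 11.8%, TTGCNNAA in 1, against 9.56%, and TATAAA in 3, against 12.4%. A match is a run of letters and not a site of binding. The element common to Cyp2c37 and Cyp2c50 was also in Cyp2c70, and its part in the levels of these genes was not tested. The promoter table has no entry for Cyp2c54.

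All values are the deposited log2 signals made with RMA, and differences are on that log2 scale, so that a difference of 1 is a change of 2-fold. RMA compresses differences at both ends of the scale, and no probe set's level was set against another's. Errors of differences are standard errors (SE) of a limma model fitted over all genes and 166 samples, a gene was called at a Benjamini-Hochberg adjusted p under 0.05, and errors of levels are standard deviations (SD) over animals. Wild-type controls had an Nr1i3 signal of 7.87 to 8.91 and an Nr1i2 signal of 6.91 to 8.01. In the knock-out, Nr1i3 lay between 4.67 and 5.38 and Nr1i2 between 3.33 and 4.01 over both arms, and in the humanized line between 4.80 and 5.46 and between 3.34 and 4.19, so no animal of either line overlapped with the wild type. The mean of 8 hepatocyte markers lay between 13.71 and 14.02 in every animal, and 7 measured markers of pancreatic acinar cells had a mean above 8 in 21 samples. A pair of arrays of treated humanized animals of day 119 (6026 and 6030) were near-identical and were averaged to 1 sample, and a knock-out array of day 28 (animal 4019) was near-identical to one labelled day 91 (animal 4024); both were kept as labelled. In bulk tissue, fewer cells of a type and less RNA per cell cannot be told apart.

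Without phenobarbital, the 3 neighbouring genes Cyp2c37, Cyp2c50 and Cyp2c54 were lower in mice lacking CAR and PXR, by 1.81-fold to 2.26-fold. Averaged over all days, Cyp2c29, Cyp2c38 and Cyp2c39 were higher and Cyp2c70 slightly lower. Humanized Cyp2c37 did not pass the test against wild type, while Cyp2c50 and Cyp2c54 lay between the other lines.

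For Cyp2c54, an epoxide-forming enzyme, the 27 wild-type controls had signals of 12.12 to 12.92 with a median of 12.54, and the 27 knock-out controls 10.47 to 11.93 with a median of 11.36. Every knock-out control was below every wild-type control. The 29 humanized controls lay at 11.46 to 12.61 with a median of 12.20, between the other lines, and 25 of them were above every knock-out control. With days weighted equally, knock-out minus wild type was -1.17 ± 0.054 (SE; limma adjusted p = 2.08e-42), the 6th lowest difference of all 12623 genes. Humanized minus wild type was -0.40 ± 0.053 (adjusted p = 5.21e-10) and humanized minus knock-out 0.77 ± 0.053 (adjusted p = 3.97e-26).

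Cyp2c50, also an arachidonic acid epoxygenase, behaved likewise. Its wild-type controls lay at 13.25 to 13.60 with a median of 13.35, its knock-out controls at 11.73 to 12.81 with a median of 12.53, and its humanized controls at 12.89 to 13.44 with a median of 13.20. All 27 knock-out controls were below all wild-type controls, and all 29 humanized controls were above all knock-out controls. Knock-out minus wild type was -0.86 ± 0.030 (adjusted p = 3.35e-55), and humanized minus wild type was -0.19 ± 0.029 (adjusted p = 4.91e-08).

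Cyp2c37, whose product makes epoxides and hydroxylated arachidonic acid, differed in 1 respect. Its wild-type controls lay at 11.14 to 12.24 with a median of 11.66, its knock-out controls at 9.70 to 11.46 with a median of 10.77, and its humanized controls at 11.30 to 12.16 with a median of 11.77. Of the knock-out controls 25 of 27 were below every wild-type control, whereas the humanized and wild-type ranges overlapped, with no humanized control outside the wild-type range. Knock-out minus wild type was -0.95 ± 0.062 (adjusted p = 1.49e-28) and humanized minus knock-out 1.03 ± 0.061 (adjusted p = 2.93e-32). Humanized minus wild type was 0.08 ± 0.060 and did not pass the test (adjusted p = 0.31).

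Averaged over all days, the members that lie earlier in the cluster went the other way in knock-out controls, by less. They were also higher in humanized than in wild-type controls. Differences between the lines other than the receptors were not tested. Cyp2c29, an epoxygenase long known as phenobarbital-inducible, was at 13.02 to 13.59 with a median of 13.30 in wild-type controls, 13.23 to 13.64 with a median of 13.46 in knock-out controls and 13.47 to 13.84 with a median of 13.67 in humanized controls. The 3 ranges overlapped, yet 21 of 29 humanized controls were above every wild-type control. Knock-out minus wild type was 0.14 ± 0.030 (adjusted p = 0.000209) and humanized minus wild type 0.35 ± 0.029 (adjusted p = 2.24e-20). Cyp2c29 was thus highest in the humanized line, above the knock-out by 0.21 ± 0.029 (adjusted p = 9.74e-09).

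Cyp2c38, another epoxygenase, spread most among animals of a group. Its controls lay at 7.41 to 9.22 in wild type (median 8.12), 8.14 to 9.27 in the knock-out (median 8.72) and 7.86 to 9.68 in the humanized line (median 8.68). The knock-out minus wild-type difference was 0.56 ± 0.080 (adjusted p = 8.96e-09) and humanized minus wild type 0.41 ± 0.078 (adjusted p = 1.20e-05), while humanized minus knock-out was -0.15 ± 0.079 (adjusted p = 0.183). Its pooled within-group SD of 0.29 exceeded that of 95.5% of all genes, whose median was 0.13. The differences between lines average all days. On day 1 Cyp2c38 controls read 7.46 to 8.21 in wild type, 8.61 to 8.97 in the knock-out and 7.86 to 8.92 in the humanized line. On day 91 they read 8.37 to 8.87, 8.14 to 9.01 and 8.43 to 8.90, and on day 119 8.58 to 9.22, 8.70 to 9.27 and 8.74 to 9.68. The knock-out was thus above every wild-type control on day 1 but overlapped on days 91 and 119. Differences between lines on single days were not tested.

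Cyp2c39, the retinoic acid hydroxylase, gave a signal close to the array medians of 5.146 to 5.231, so its differences may be understated. Its controls lay at 4.99 to 5.79 in wild type, 5.10 to 5.89 in the knock-out and 5.21 to 6.08 in the humanized line, with wide overlap. The knock-out minus wild-type difference was 0.20 ± 0.047 (adjusted p = 0.000473) and humanized minus wild type 0.30 ± 0.046 (adjusted p = 8.18e-08). Cyp2c70, the bile acid hydroxylase, lay at 12.80 to 13.79 in wild-type controls, 12.72 to 13.65 in knock-out controls and 12.67 to 13.48 in humanized controls. Averaged over all days, it was lower in both lines, by -0.17 ± 0.042 in the knock-out (adjusted p = 0.000779) and -0.28 ± 0.041 in the humanized line (adjusted p = 1.53e-08), with all but 1 animal of each line within or above the wild-type range. Humanized minus knock-out was -0.10 ± 0.041 for Cyp2c70 (adjusted p = 0.062) and passed the test in 8 of 56 fits that left out 1 animal. On day 1 wild-type Cyp2c70 controls, at 13.65 to 13.79, were above all knock-out (13.21 to 13.54) and humanized (13.09 to 13.48) controls. The lines overlapped on day 91, at 13.02 to 13.15, 13.04 to 13.17 and 12.88 to 13.23 in that order. They also overlapped on day 119, at 12.80 to 13.25, 12.72 to 13.26 and 12.67 to 13.07. Differences between lines on single days were not tested.

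Of the 7 members, 7 were called between knock-out and wild-type controls, 3 higher and 4 lower, where 22.4% of all genes were called. Between humanized and wild-type controls 6 were called, 3 in each direction, against 28.1% of all genes, and between humanized and knock-out controls 4, all higher, against 16.6%. The median over the members was -0.17, 0.08 and 0.21 in these comparisons, against -0.01, -0.01 and -0.00 over all genes. Beside these differences, 6 of 10 Kupffer cell and macrophage markers were higher in knock-out than wild-type controls (median 0.22), and 7 of 7 measured acinar markers were lower in humanized than in wild-type controls (median -1.13). Without the 21 samples whose acinar mean was above 8, knock-out minus wild type remained called for all 7 members and humanized minus wild type for the same 6. The part of the Kupffer cell markers in the knock-out differences was not tested.

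**Figure D1:**
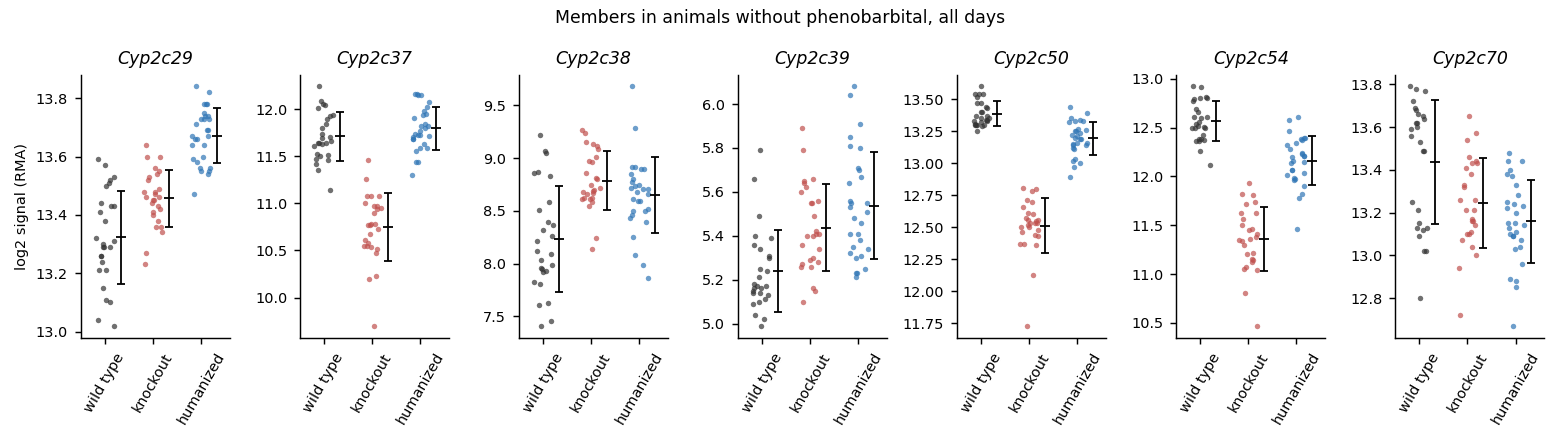
Log2 RMA signal of each member in every animal without phenobarbital, days 1 to 119 together, by genotype; the bar beside each column is the mean ± SD over animals, and each panel has its own scale. For Cyp2c50 and Cyp2c54 all 27 knock-out controls lie below all 27 wild-type controls, and for Cyp2c29 the humanized controls are highest.

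Over the 5 dosing days, phenobarbital raised Cyp2c37, Cyp2c54, Cyp2c50 and Cyp2c29 in wild-type liver, Cyp2c37 and Cyp2c54 by 2.53-fold and 2.61-fold and the other pair by 1.60-fold and 1.54-fold. The same 4 genes rose in the humanized line, Cyp2c29 least. In mice lacking CAR and PXR none of the 4 was called over the dosing days. Cyp2c70 was not called in any of the 3 genotypes.

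Treated wild-type animals of the dosing days had a Cyp2c54 signal of 13.61 to 14.08 with a median of 13.94 (24 animals), against 12.12 to 12.81 with a median of 12.50 in 22 controls. All 24 treated animals were above every control of their day. The mean effect was 1.38 ± 0.058 (adjusted p = 1.19e-46), the 23rd highest of all genes. The 23 treated humanized samples lay at 12.74 to 13.72 (median 13.39) against 11.46 to 12.46 in controls (median 12.14), also without overlap on any dosing day, and the effect was 1.27 ± 0.058 (adjusted p = 2.38e-43). In the knock-out, 24 treated animals lay at 11.09 to 11.94 (median 11.60) and 22 controls at 10.47 to 11.93 (median 11.43), and the difference of 0.10 ± 0.059 was not called (adjusted p = 0.232).

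For Cyp2c37 the treated wild-type animals lay at 12.40 to 13.30 (median 13.07) and the controls at 11.14 to 12.05 (median 11.64). Again 24 of 24 were above every control of their day, and the effect was 1.34 ± 0.066 (adjusted p = 1.35e-39), directly after Cyp2c54 in rank, at 24. The humanized effect was 1.02 ± 0.066 (adjusted p = 5.11e-29), with 23 of 23 treated samples above every control of their day. In the knock-out it was 0.02 ± 0.067 (adjusted p = 0.904).

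Cyp2c50 rose as tightly but by less on this scale. Treated wild-type animals lay at 13.87 to 14.12 (median 14.03) against 13.25 to 13.52 (median 13.34) in controls, and treated humanized samples at 13.59 to 14.00 (median 13.87) against 12.89 to 13.33 (median 13.18). Neither line had any overlap on any dosing day. The effects were 0.68 ± 0.032 (adjusted p = 5.17e-41) and 0.70 ± 0.032 (adjusted p = 1.18e-42), and in the knock-out 0.06 ± 0.033 (adjusted p = 0.19).

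Cyp2c29 rose by more on this scale in wild type than in the humanized line. Treated wild-type animals lay at 13.62 to 14.02 (median 13.93) against 13.02 to 13.59 (median 13.29), with 24 of 24 above every control of their day, and the effect was 0.62 ± 0.032 (adjusted p = 3.88e-38). Treated humanized samples reached nearly the same levels, 13.63 to 14.06 with a median of 13.92, but from controls at 13.47 to 13.75 with a median of 13.66. There 18 of 23 were above every control of their day, and the effect was 0.24 ± 0.032 (adjusted p = 1.73e-10). The knock-out gave -0.04 ± 0.032 (adjusted p = 0.429).

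The remaining members moved little. Cyp2c39 was higher in treated wild-type animals by 0.28 ± 0.051 (adjusted p = 3.05e-06), with 18 of 24 above every control of their day, and in the knock-out by 0.15 ± 0.051 (adjusted p = 0.0248), a call that was lost without knock-out control animal 3007 (0.13, adjusted p = 0.0778). The humanized difference was 0.09 ± 0.050 (adjusted p = 0.15). Cyp2c38 was lower in the treated humanized line by -0.33 ± 0.085 (adjusted p = 0.00113), with treated samples at 7.30 to 8.64 and controls at 7.86 to 8.92 and overlap on all dosing days but day 14. Its differences of -0.12 ± 0.086 in wild type (adjusted p = 0.287) and 0.18 ± 0.087 in the knock-out (adjusted p = 0.126) were not called, the latter being called at 0.24 (adjusted p = 0.0323) without the samples high in acinar markers. On day 14 the humanized Cyp2c38 difference was -0.49 ± 0.184 (adjusted p = 0.0662) and was called under 3 of 11 alternative settings. For Cyp2c70 the differences were 0.01 ± 0.045, 0.02 ± 0.045 and -0.03 ± 0.044 in wild type, knock-out and humanized line (adjusted p = 0.864, 0.77 and 0.655), with overlap on every day in every genotype.

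Over the dosing days 5 of the 7 members were called in wild type, all higher, where 31.5% of all genes were called, and 5 in the humanized line, 4 higher and 1 lower, against 32.4%. In the knock-out 1 was called, against 19.6%. The member medians were 0.62, 0.24 and 0.06, beside -0.01, -0.00 and 0.01 over all genes. Among cell markers, 4 of 8 of stellate cells (median -0.12), 4 of 8 of hepatocytes (median -0.03) and 1 of 10 of Kupffer cells were lower in treated wild type, 1 of 3 of B and plasma cells was higher, and none of 7 endothelial, 3 cholangiocyte, 2 T and NK cell, 3 neutrophil, 3 adipose and 1 erythroid markers was called. Treated humanized samples had lower levels of 4 of 8 hepatocyte markers (median -0.04), 3 of 8 stellate markers (median -0.08), 1 of 7 endothelial, 1 of 3 neutrophil and 1 of 1 erythroid markers (the last by -0.30), and higher levels of 1 of 3 cholangiocyte, 1 of 2 T and NK cell and 1 of 3 B and plasma cell markers. In the treated knock-out 1 of 8 hepatocyte and 1 of 3 cholangiocyte markers were higher and the erythroid marker was lower, by -0.12. Of the acinar markers 0 of 7 were called in any genotype. The part of these markers in the results was not tested. Cyp2c37, Cyp2c50 and Cyp2c54 are close paralogues, and how far their transcripts reach each other's probe sets was not tested.

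The effect differed between lines for the genes that rose. Knock-out minus wild type was -1.32 ± 0.094 for Cyp2c37 (adjusted p = 3.52e-25), -1.28 ± 0.083 for Cyp2c54 (adjusted p = 1.23e-28), -0.66 ± 0.045 for Cyp2c29 (adjusted p = 1.91e-26) and -0.62 ± 0.046 for Cyp2c50 (adjusted p = 1.28e-23), so 4 of 7 members were called, against 13.4% of all genes. For Cyp2c38 and Cyp2c39 the differences of 0.31 ± 0.123 and -0.13 ± 0.072 were not called (adjusted p = 0.0824 and 0.259; Cyp2c38 was at 0.40 with adjusted p = 0.0232 without the samples high in acinar markers), nor was that of 0.01 ± 0.064 for Cyp2c70 (adjusted p = 0.948). Humanized minus knock-out was called for 5 members, against 10.1% of all genes. The differences were 1.17 ± 0.082 for Cyp2c54, 1.00 ± 0.094 for Cyp2c37, 0.64 ± 0.046 for Cyp2c50 and 0.28 ± 0.045 for Cyp2c29 (adjusted p = 1.55e-25, 6.75e-17, 9.84e-25 and 7.12e-07), and -0.51 ± 0.122 for Cyp2c38 (adjusted p = 0.00139).

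Between the humanized line and wild type the members split. The effect on Cyp2c29 was smaller in the humanized line by -0.38 ± 0.045 (adjusted p = 3.38e-11), and this call held under all 11 alternative settings. For Cyp2c37 it was -0.32 ± 0.093 (adjusted p = 0.0432), a call that was lost in 35 of 93 fits that left out 1 animal (adjusted p from 0.0201 to 0.0665), without the samples high in acinar markers (-0.26, adjusted p = 0.231) and with RNA quality as a covariate (-0.28, adjusted p = 0.153). For Cyp2c50 the difference was 0.02 ± 0.046 and for Cyp2c54 -0.11 ± 0.082 (adjusted p = 0.915 and 0.618). These 2 called members stand against 1.88% of all genes. The lines started from different control levels, as given above, so an equal difference does not mean an equal treated level. Cyp2c29 had a mean signal at percentile 99.7 of all genes, and RMA compresses differences at that end of the scale. The part of this in its smaller humanized effect was not tested.

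**Figure D2:**
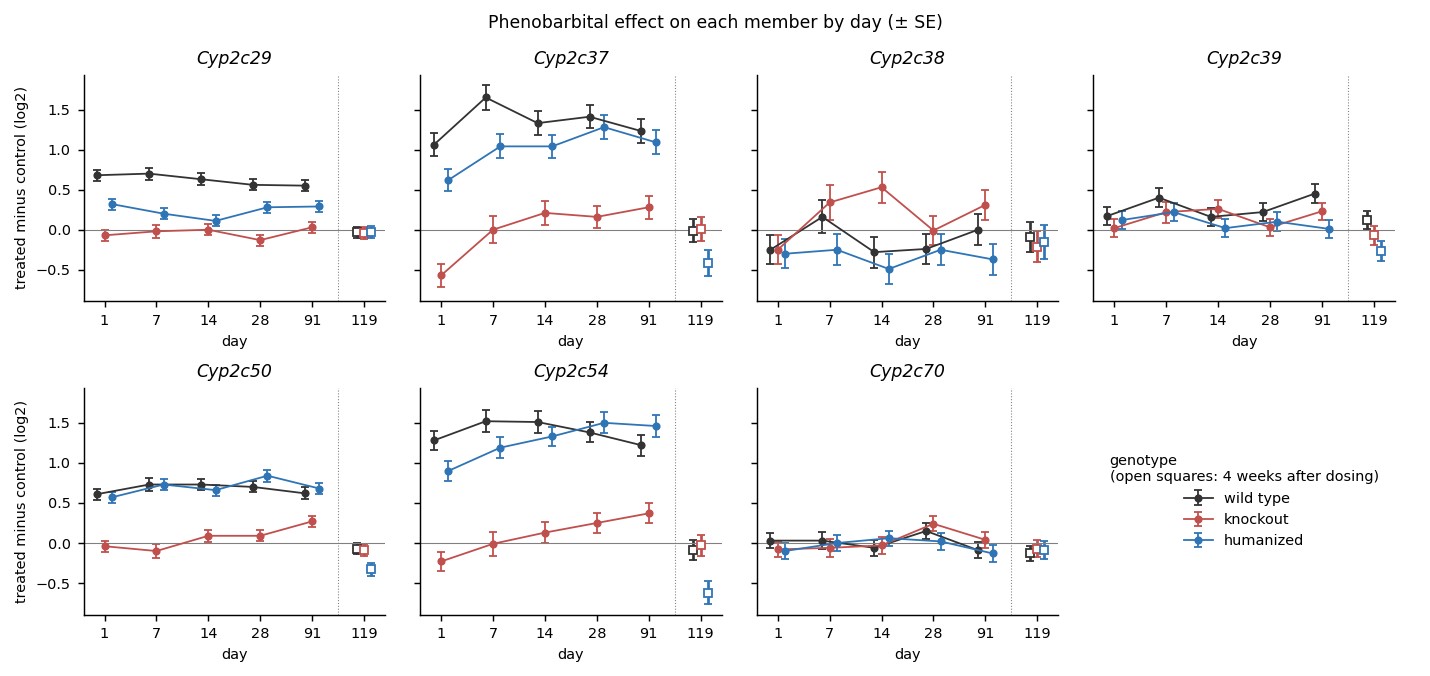
Treated minus control on the log2 scale (± SE of the limma fit) for each member, by day and genotype; filled circles are dosing days and open squares day 119, after recovery. Cyp2c37, Cyp2c50 and Cyp2c54 lie above 0.5 on every dosing day in wild type and the humanized line, and every member in wild type is within 0.13 of 0 on day 119.

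The rise was present on day 1. Wild-type Cyp2c37 read 12.40, 12.51, 12.57, 12.59 and 12.66 in the 5 treated animals of that day and 11.14, 11.42, 11.52, 11.64 and 11.70 in the 5 controls. The groups did not overlap, and the effect was 1.06 ± 0.142 (adjusted p = 2.73e-09). It was 1.65 ± 0.158 on day 7, where the 4 treated animals read 13.04, 13.07, 13.14 and 13.30, then 1.33 ± 0.150, 1.41 ± 0.142 and 1.23 ± 0.150 on days 14, 28 and 91 (largest adjusted p of these days 9.39e-11). Day 91 minus day 1 was 0.17 ± 0.206 and was not called (adjusted p = 0.87).

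Wild-type Cyp2c54 read 13.61, 13.67, 13.68, 13.79 and 13.88 on day 1 against 12.12, 12.49, 12.50, 12.50 and 12.61, an effect of 1.28 ± 0.124 (adjusted p = 8.91e-16), and lay between 1.22 and 1.52 on the other dosing days. The humanized effect was 0.90 ± 0.124 on day 1, 1.19 ± 0.132 and 1.33 ± 0.124 on days 7 and 14 and 1.46 ± 0.132 on day 91, with day 28 slightly above that. The difference between day 91 and day 1 there, 0.56 ± 0.181, was not called (adjusted p = 0.0854), but it was called without humanized control animal 5004 (0.66, adjusted p = 0.0432). Humanized Cyp2c37 went from 0.62 ± 0.142 on day 1 to 1.09 ± 0.150 on day 91, a difference of 0.47 ± 0.206 that was not called (adjusted p = 0.254).

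Cyp2c50 and Cyp2c29 also rose on day 1, and their change from day 1 to day 91 was not called in either line. The wild-type effects on Cyp2c50 lay between 0.61 and 0.73 and the humanized ones between 0.57 and 0.84. Those on Cyp2c29 lay between 0.55 and 0.70 in wild type. Humanized Cyp2c29 differed by 0.32 ± 0.068, 0.20 ± 0.072, 0.11 ± 0.068, 0.28 ± 0.072 and 0.29 ± 0.072 from day 1 to day 91, and was called on days 1, 28 and 91 (adjusted p = 0.00035, 0.0046 and 0.00773). With only the groups compared in the fit, the calls of days 28 and 91 were lost (adjusted p = 0.0728 and 0.0738). The day 91 call was also lost without treated animal 6021 (0.27, adjusted p = 0.056), and day 7 was called without treated animal 6008 (0.25, adjusted p = 0.0374). On day 14 the treated humanized animals read 13.63, 13.65, 13.68, 13.98 and 14.06 for Cyp2c29 against 13.64, 13.66, 13.69, 13.71 and 13.74 in controls, so 2 animals were above all controls and 3 among or below them.

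By day, 4 of 7 members were called in wild type on days 1, 7, 14 and 28 and 5 on day 91, when Cyp2c39 joined them at 0.45 ± 0.115 (adjusted p = 0.0111). All genes were called at shares of 12%, 2.72%, 8.79%, 5.55% and 2.13% on those days. The Cyp2c39 call of day 91 was lost without control animal 1022 (0.43, adjusted p = 0.0592) or control animal 1023 (0.42, adjusted p = 0.0631), and without the samples high in acinar markers (0.45, adjusted p = 0.0599). For the humanized line 4, 3, 3, 4 and 4 members were called on days 1, 7, 14, 28 and 91, all higher, against 11.7%, 4.84%, 11.9%, 7.7% and 2.19% of all genes. The change of effect from day 1 to day 91 was called for 0 members in wild type, where 0.436% of all genes were called, and for 0 in the humanized line, against 1.74%. At an unadjusted p under 0.05 the count was 0 in wild type and 2 in the humanized line, Cyp2c37 and Cyp2c54. The share of all genes at that unadjusted threshold is larger and was not counted, so those 2 cannot be set against 1.74%.

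Humanized minus wild-type effects by day were called for Cyp2c29 on day 7, at -0.50 ± 0.105 (adjusted p = 0.00668), and on day 14, at -0.51 ± 0.099 (adjusted p = 0.0011). The day 7 call was lost without wild-type control animal 1010 (-0.45, adjusted p = 0.0627) or treated humanized animal 6008 (-0.44, adjusted p = 0.0761). On day 1 it was -0.36 ± 0.096 (adjusted p = 0.204), and was called without wild-type control animal 1001 (-0.44, adjusted p = 0.0158). Called members thus numbered 0, 1, 1, 0 and 0 on days 1, 7, 14, 28 and 91, beside 0.111%, 0.0951%, 0.317%, 0.135% and 0.103% of all genes.

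**Figure D3:**
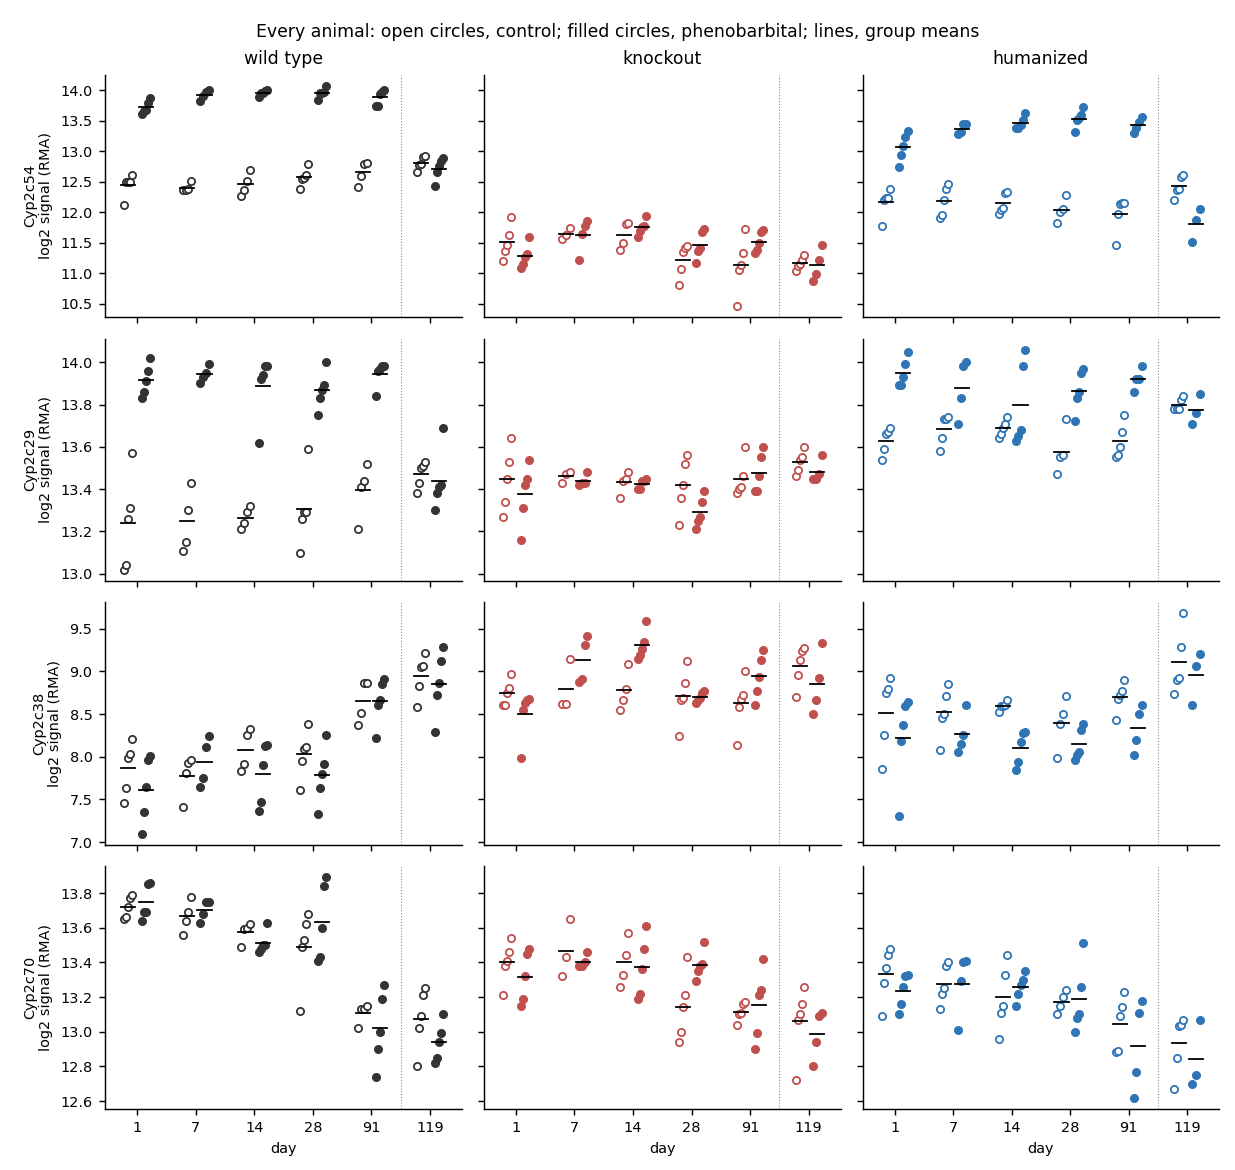
Log2 RMA signal of Cyp2c54, Cyp2c29, Cyp2c38 and Cyp2c70 in every animal by day and genotype, with open circles for controls, filled circles for phenobarbital and lines for group means; the dotted line separates dosing days from day 119. Treated Cyp2c54 is clear of all controls on every dosing day in wild type and the humanized line but not in the knock-out, and wild-type Cyp2c70 controls are lower on day 119 than on day 1.

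In the knock-out 2 single values were called. On day 1 Cyp2c37 read 9.93, 9.97, 10.20, 10.27 and 10.39 in treated animals and 10.47, 10.55, 10.55, 10.94 and 11.08 in controls. All 5 treated animals were below every control, and the difference was -0.57 ± 0.142 (adjusted p = 0.00488), opposite in direction to the other lines. The call was lost without control animal 3001 (-0.48, adjusted p = 0.0506) and when only the groups compared were fitted (adjusted p = 0.0534). On day 91 Cyp2c50 was higher by 0.27 ± 0.069 (adjusted p = 0.0131), with treated animals at 12.42, 12.58, 12.60, 12.63 and 12.71 and controls at 11.73, 12.36, 12.43, 12.46 and 12.60. That difference rested on control animal 3025, at 11.73, without which it was 0.13 (adjusted p = 0.278). For Cyp2c54 on day 91 the difference of 0.37 ± 0.124 was not called (adjusted p = 0.0712), but was without control animal 3023 (0.51, adjusted p = 0.0199).

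Knock-out Cyp2c37 had the 1 called change of effect with time, from day 1 to day 91, at 0.85 ± 0.200 (adjusted p = 0.0211), where 0.665% of all genes were called. It was not called without control animal 3001 (0.76, adjusted p = 0.0812), control animal 3025 (0.59, adjusted p = 0.135), treated animal 4002 (0.79, adjusted p = 0.0506) or the samples high in acinar markers (0.73, adjusted p = 0.137). Without control animal 3023 the changes of Cyp2c50 (0.39, adjusted p = 0.0322) and Cyp2c54 (0.74, adjusted p = 0.0194) were called too. The treated day 91 group holds animal 4024, whose array was near-identical to one labelled day 28. Over the dosing days, 1, 0, 0, 0 and 1 members were called in the knock-out on days 1, 7, 14, 28 and 91, against 8.07%, 0.0158%, 0.325%, 5.16% and 3.45% of all genes.

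After 4 weeks without drug the wild-type members were back among their controls. On day 119 Cyp2c54 read 12.44, 12.66, 12.76, 12.84 and 12.89 in formerly treated animals and 12.66, 12.77, 12.79, 12.91 and 12.92 in controls, a difference of -0.09 ± 0.124 (adjusted p = 0.999). Wild-type differences of the 7 members ran from -0.13 to 0.12, with 0 called by limma, where 0.0238% of all genes were called. At an unadjusted p under 0.05 the count of members was also 0. Knock-out differences ran from -0.21 to 0.01, with 0 called, against 0.111% of all genes, and 0 at an unadjusted p under 0.05. The share of all genes at that unadjusted threshold was not counted.

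In the humanized line the formerly treated samples ended below the controls of day 119 for Cyp2c37, Cyp2c50 and Cyp2c54, while the other members overlapped. The control means of Cyp2c37, Cyp2c50 and Cyp2c54 were themselves highest on day 119, at 12.06, 13.37 and 12.43. The treated samples lay within the ranges of the dosing-day controls, 11.30 to 12.16, 12.89 to 13.33 and 11.46 to 12.46. Cyp2c54 read 11.51, 11.88 and 12.05 against 12.21, 12.37, 12.39, 12.58 and 12.61, a difference of -0.62 ± 0.144 (adjusted p = 0.0252). Cyp2c50 read 12.98, 13.06 and 13.08 against 13.32, 13.34, 13.35, 13.39 and 13.44, at -0.33 ± 0.080 (adjusted p = 0.039). Cyp2c37 read 11.56, 11.58 and 11.80 against 11.94, 11.98, 12.08, 12.15 and 12.16, at -0.41 ± 0.163, which was not called (adjusted p = 0.325). All 3 treated samples were below all 5 controls for each of these genes, but the share of all genes that separated in this way was not counted. Outside the members, Cyp2b10 separated too, at 7.80 to 8.49 against 8.61 to 9.61. So did Cyp2c55, at 9.31 to 9.40 against 9.69 to 10.53, while Cyp2c65, Nr1i3 and Nr1i2 overlapped. By limma 2 of 7 members were called, against 0.214% of all genes called. The calls were fragile: the Cyp2c54 call was lost in 5 and the Cyp2c50 call in 6 of 8 fits that left out 1 sample, with values of -0.74 to -0.47 and -0.35 to -0.30. For Cyp2c54 these were animals 6027 (-0.47), 6029 (-0.65, adjusted p = 0.0511), 5026 (-0.57, adjusted p = 0.0764), 5029 (-0.67, adjusted p = 0.0532) and 5030 (-0.58, adjusted p = 0.0733). For Cyp2c50 they were 6026, 6027, 6029, 5026, 5029 and 5030, with adjusted p from 0.0597 to 0.424. The treated group had the highest 3′ minus 5′ signal of the Gapdh control probe sets, a sign of RNA quality, at 0.48 to 0.81 against 0.37 to 0.53 in its controls. With that measure in the model the differences were -0.58 (adjusted p = 0.164) and -0.27 (adjusted p = 0.347).

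The controls themselves changed over the time of the study. In untreated wild type, Cyp2c38 rose from 7.46, 7.63, 7.99, 8.03 and 8.21 on day 1 to 8.58, 8.83, 9.05, 9.07 and 9.22 on day 119, without overlap, by 1.09 ± 0.184 (adjusted p = 4.05e-06). Cyp2c70 went down over the same time, from 13.65, 13.66, 13.72, 13.77 and 13.79 to 12.80, 13.02, 13.09, 13.21 and 13.25, by -0.64 ± 0.096 (adjusted p = 1.26e-07). Wild-type Cyp2c70 controls read 13.12 to 13.68 on day 28 and 13.02 to 13.15 on day 91, ranges that overlap, and treated wild-type animals read 12.74 to 13.27 on day 91. The difference between days 28 and 91 was not tested. Beside these changes, 2 of 3 B and plasma cell markers were higher on day 119 in wild-type controls (median 1.37) and in humanized controls (median 1.00). Of the male-biased liver genes 5 of 8 were lower in each of these lines (medians -0.59 and -0.45), and of the female-biased ones 3 of 6 were higher (medians 0.56 and 0.52). In knock-out controls 1 of 3 B and plasma cell markers was higher (median 0.46). There 1 of 8 male-biased genes was lower (median -0.22) and 0 of 6 female-biased ones were called (median -0.02). Of all genes 12.4%, 6.9% and 7.99% were called in wild-type, humanized and knock-out controls. The part of these markers and sex-biased genes in the changes of the members was not tested.

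Cyp2c70 was also lower on day 119 than on day 1 in the untreated knock-out, by -0.34 ± 0.096 (adjusted p = 0.0142; -0.25 and adjusted p = 0.112 without animal 3028), and in the untreated humanized line, by -0.40 ± 0.096 (adjusted p = 0.00278). With only the groups compared in the fit, neither was called (adjusted p = 0.0734 and 0.0561). Cyp2c37 rose by 0.58 ± 0.142 in wild type (adjusted p = 0.0022), Cyp2c39 by 0.40 ± 0.109 (adjusted p = 0.00733), Cyp2c54 by 0.37 ± 0.124 (adjusted p = 0.0364), Cyp2c29 by 0.23 ± 0.068 (adjusted p = 0.014) and Cyp2c50 by 0.20 ± 0.069 (adjusted p = 0.0362). In all, 7 members were called in wild type, against 12.4% of all genes, 1 in the knock-out, against 7.99%, and 5 in the humanized line, against 6.9%. Among day 1 wild-type controls 3 of 5 samples were high in acinar markers, and without the samples high in those markers only Cyp2c38 and Cyp2c70 remained called in wild type. The Cyp2c37 value was then 0.46 (adjusted p = 0.25) and the Cyp2c39 value 0.48 (adjusted p = 0.0734). The 3′ minus 5′ Gapdh signal, the sign of RNA quality, had a median of 0.55 in wild-type controls on day 1 and 0.42 on day 119. With that measure in the model Cyp2c50 was at 0.18 (adjusted p = 0.0792) and Cyp2c54 at 0.35 (adjusted p = 0.054), neither called. Cyp2c50 was also not called after quantile normalization (0.19, adjusted p = 0.0536), nor Cyp2c29 with only the groups compared in the fit (adjusted p = 0.131). The calls of the other members were also lost with single animals: that of Cyp2c29 without 1002 or 1003 (0.18 each; adjusted p = 0.108 and 0.0914), and that of Cyp2c39 without 1029 (0.33, adjusted p = 0.0517). Those of Cyp2c50 and Cyp2c54 were each lost in 7 of 10 such fits, over which the values were 0.18 to 0.23 and 0.28 to 0.41. The animals were 1002, 1003, 1026, 1029 and 1030 for both, 1005 and 1028 for Cyp2c50, and 1001 and 1027 for Cyp2c54. In the knock-out controls Cyp2c54 differed by -0.35 ± 0.124 (adjusted p = 0.0634), which was called without animal 3005 (-0.43, adjusted p = 0.0263).

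In the humanized controls, Cyp2c38 rose by 0.59 ± 0.184 (adjusted p = 0.033), Cyp2c37 by 0.44 ± 0.142 (adjusted p = 0.0394), Cyp2c39 by 0.41 ± 0.109 (adjusted p = 0.00864) and Cyp2c50 by 0.23 ± 0.069 (adjusted p = 0.0251). Leaving out single animals ended these calls in 4, 6, 2 and 3 of 10 fits, with values of 0.42 to 0.69, 0.36 to 0.49, 0.35 to 0.49 and 0.17 to 0.26. The animals were 5027, 5029, 5002 and 5003 for Cyp2c38, 5026, 5029, 5030, 5002, 5003 and 5004 for Cyp2c37, 5029 and 5002 for Cyp2c39, and 5026, 5030 and 5004 for Cyp2c50. With only the groups compared in the fit, those of Cyp2c38, Cyp2c39 and Cyp2c50 were lost (adjusted p = 0.179, 0.0927 and 0.114). The Cyp2c37 call was lost with no filter on dim genes (adjusted p = 0.0538) and without the samples high in acinar markers (adjusted p = 0.0523). Whether arrays of different days were processed together is not given in the sources used here, so day, age and array processing cannot be told apart in these comparisons. The treated minus control differences compare animals of the same day.

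Over the 36 group means, which share animals and arrays across genes, Cyp2c37, Cyp2c50 and Cyp2c54 followed one another with Pearson r of 0.96 to 0.98, and Cyp2c29 followed them at 0.69 to 0.78. Cyp2c38 had r of -0.66 to -0.55 with the trio and -0.65 with Cyp2c70, and Cyp2c39 had -0.62 with Cyp2c70. Cyp2c70 had r of 0.05 to 0.25 with the trio. Outside the members, the gene most like each of the trio was Nsl1, which codes for a kinetochore protein, with r of 0.96 for Cyp2c37 and Cyp2c50 and 0.98 for Cyp2c54. Nsl1 differed under phenobarbital by 0.71 in wild type, 0.12 in the knock-out and 0.58 in the humanized line, and between knock-out and wild-type controls by -0.44. Next came Cyp2b10, the usual CAR target, for Cyp2c37 (r = 0.93), the organic anion transporter gene Slco1a4 for Cyp2c50 (0.93) and the carboxypeptidase gene Cpe for Cyp2c54 (0.91). The genes most like Cyp2c29 were the histone acetyltransferase gene Kat2a (0.94) and the glucuronosyltransferase gene Ugt2b34 (0.92), those most like Cyp2c38 Mospd2 (0.90) and the class I histocompatibility gene H2-K1 (0.87), and those most like Cyp2c70 the prolyl isomerase gene Ppib (0.93) and the coagulation factor gene F11 (0.92). Cyp2c39 had no likeness above 0.82, for Suclg2 and Fbxl5.

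Along the cluster, the tested neighbours that are not members moved in both directions. Cyp2c65 and Cyp2c55 rose by 5.67 ± 0.075 and 4.39 ± 0.073 in treated wild type (adjusted p = 9.61e-108 and 3.65e-95), and by 4.39 ± 0.074 and 2.84 ± 0.072 in the humanized line (adjusted p = 7.42e-94 and 7.70e-72). Cyp2c68, which lies between Cyp2c38 and Cyp2c37, fell by -0.40 ± 0.067 in wild type and -0.45 ± 0.066 in the humanized line (adjusted p = 4.76e-07 and 1.31e-08). None of the 4 other tested Cyp2c genes was called under phenobarbital in the knock-out. Without drug, knock-out minus wild type was 1.92 ± 0.068 for Cyp2c55 (adjusted p = 5.91e-55), of the opposite sign to the trio.

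**Figure D4:**
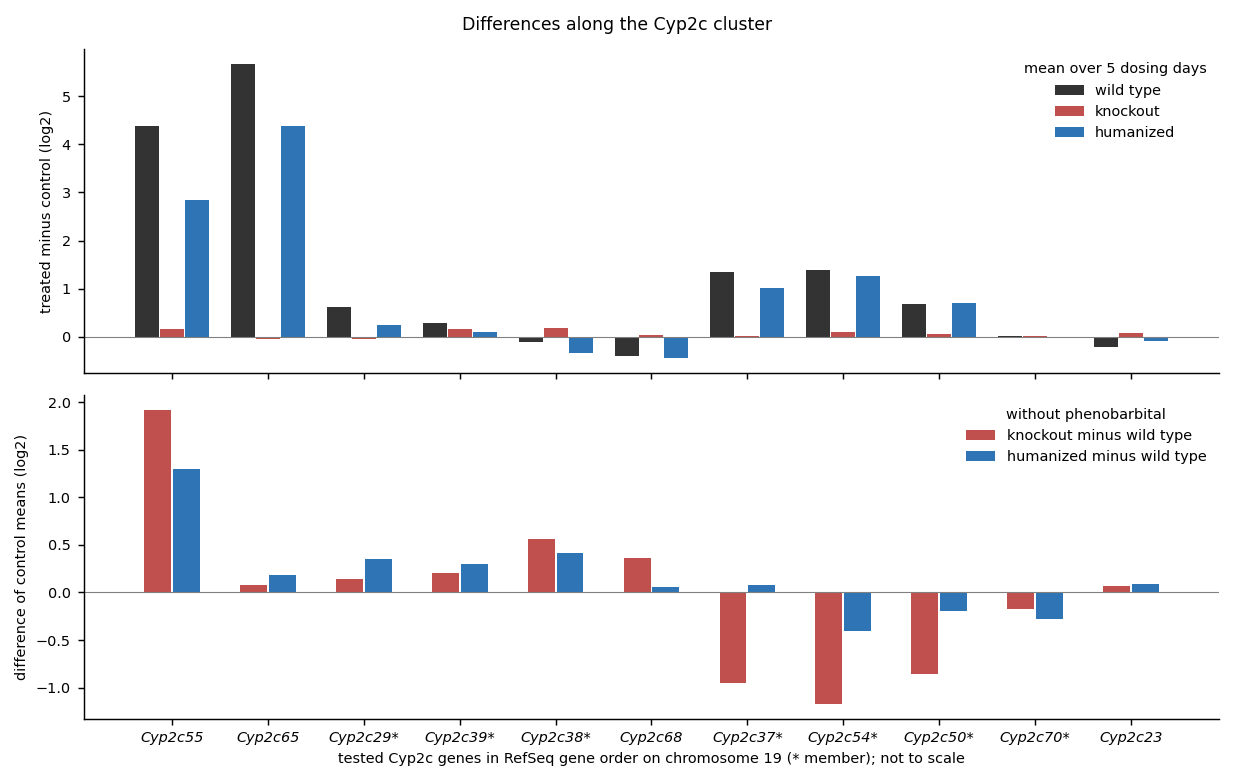
Mean treated minus control over the 5 dosing days (upper panel) and difference of control means from wild type (lower panel), both on the log2 scale, for the tested Cyp2c genes in RefSeq's order on chromosome 19; spacing is not to scale and bars carry no error. Cyp2c37, Cyp2c54 and Cyp2c50 are the neighbouring genes that are higher under phenobarbital in wild type and lower in knock-out controls, and Cyp2c70 after them is near 0 in the upper panel.

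Other genes of the same pathways were taken from lists of textbook members. The lists were chosen with earlier results of these data known, so they are no independent test. Their counts are to be read against the 31.5% of all genes called under phenobarbital in wild type, 32.4% in the humanized line and 19.6% in the knock-out. Of 11 tested readouts of CAR and PXR, 11 rose in treated wild type and 11 in the humanized line, with medians of 1.21 and 0.59, and 5 rose in the knock-out, with a median of 0.10. Cyp2b10 led them, at 6.50 ± 0.089 in wild type (adjusted p = 5.99e-106) and 4.71 ± 0.088 in the humanized line (adjusted p = 1.57e-88), with 0.17 in the knock-out. Gstm3, a glutathione transferase gene, was the largest of the 5 in the knock-out at 0.62 ± 0.083 (adjusted p = 1.18e-08), beside 3.01 ± 0.082 in wild type.

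Downstream of the epoxygenases, Ephx1, the microsomal epoxide hydrolase, rose by 0.52 ± 0.042 in wild type and 0.43 ± 0.042 in the humanized line (adjusted p = 2.25e-21 and 2.34e-16). Ephx2, the other epoxide hydrolase gene listed, fell by -0.19 and -0.16 in those lines (adjusted p = 1.33e-10 and 6.92e-08). In the knock-out it differed by -0.06 and was not called (adjusted p = 0.0593). Upstream, Pla2g12a, a phospholipase, rose by 0.70 ± 0.065 in wild type (adjusted p = 1.42e-17) and by 0.16 in the humanized line (adjusted p = 0.0429), with -0.17 in the knock-out (adjusted p = 0.0582). Of 14 tested genes of arachidonate release and epoxide handling, 4 rose and 3 fell in wild type, 6 rose and 2 fell in the humanized line, and 2 rose in the knock-out. The 7 genes called in wild type and 8 in the humanized line stand against the 31.5% and 32.4% of all genes. Among 14 tested genes of electron supply and haem synthesis, which P450 enzymes need, 6 rose and 0 fell in wild type, where 31.5% of all genes were called. In the humanized line 6 rose and 0 fell, where 32.4% were called, but the genes were not all the same. Both included the cytochrome b5 gene Cyb5a at 0.21 ± 0.015 in wild type and 0.20 ± 0.014 in the humanized line (adjusted p = 5.39e-26 and 1.62e-24). The largest in wild type was Alas1, at 1.09 ± 0.260 (adjusted p = 0.000412). Alas1 was not called in the humanized line (0.15, adjusted p = 0.709) or the knock-out (-0.42, adjusted p = 0.267). Blvrb differed by 0.15 in wild type and 0.43 in the humanized line (adjusted p = 0.00126 and 1.02e-18). In the knock-out 3 rose, Cyb5a by 0.06 ± 0.015 (adjusted p = 0.00102).

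Of 18 genes of bile acid synthesis and transport, the pathway of CYP2C70, 3 rose and 5 fell in wild type, 1 rose and 7 fell in the humanized line, and 1 rose and 1 fell in the knock-out, beside 31.5%, 32.4% and 19.6% of all genes called. Akr1d1, the steroid 5-beta reductase, rose by 0.42 ± 0.047, 0.40 ± 0.046 and 0.15 ± 0.047 in wild type, humanized line and knock-out (adjusted p = 1.15e-13, 9.13e-13 and 0.0163). Cyp7b1, an oxysterol hydroxylase, fell by -0.35 ± 0.068 and -0.41 ± 0.067 in the lines with receptors (adjusted p = 1.16e-05 and 1.73e-07). Of 27 other tested liver P450 genes 10 rose and 10 fell in wild type, Cyp2g1 by 0.95 ± 0.089 (adjusted p = 1.48e-17) and Cyp1a2, the caffeine-metabolising enzyme, by 0.66 ± 0.062 (adjusted p = 1.76e-17) among those that rose. Cyp4a14, a fatty acid hydroxylase gene, fell by -1.47 ± 0.295 (adjusted p = 2.60e-05). In the humanized line 4 rose and 9 fell, Cyp1a2 by 0.47 ± 0.061 (adjusted p = 9.55e-11) and Cyp2u1 by -0.58 ± 0.053 (adjusted p = 6.04e-18), and in the knock-out 6 rose and 3 fell, Cyp1a2 by 0.27 ± 0.062 (adjusted p = 0.000566). The wild-type median of these 27 was 0.01, beside 0.62 for the 7 members.

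Of 17 tested liver transcription factor genes, 0 rose and 7 fell in treated wild type, 0 rose and 6 fell in the humanized line, and 0 rose and 4 fell in the knock-out, beside 31.5%, 32.4% and 19.6% of all genes called. Ppara, a fatty acid receptor gene, fell by -0.50 ± 0.070, -0.53 ± 0.070 and -0.28 ± 0.071 in those lines (adjusted p = 2.32e-09, 1.58e-10 and 0.00222), and Nr1i3 itself fell by -0.20 ± 0.052 in wild type (adjusted p = 0.00136). Of 8 tested male-biased liver genes 4 fell and 1 rose in wild type, 5 fell in the humanized line and 4 in the knock-out. Hsd3b5, a male-specific steroid dehydrogenase gene, differed by -0.35 ± 0.079, -0.70 ± 0.078 and -0.30 ± 0.079 (adjusted p = 0.000188, 1.31e-13 and 0.00333). Of 6 tested female-biased genes 4 rose and 1 fell in wild type, 4 rose in the humanized line and 1 rose in the knock-out, Cyp2b9 by 3.07 ± 0.174, 1.86 ± 0.172 and 0.49 ± 0.175 (adjusted p = 3.77e-34, 9.34e-18 and 0.0366). Cyp2b9 and Cyp2b13, both female-biased, were also counted among the readouts of CAR and PXR. Cyp7b1 was counted among the male-biased, bile acid and other P450 genes. The lists share further genes, so their counts are not independent.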

How the data were processed

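Bulk liver RNA was measured on 167 Affymetrix arrays, 1 animal each, per the labels. The values used are the deposited log2 signals of 45101 probe sets, made with RMA per the submitters' processing notes; no RMA software or version is named there. The labels name separate animals, so p-values measure the spread between animals. Of the probe sets, 34958 had 1 gene symbol. For each gene the probe set with the highest mean was kept, and 5571 genes not above the array median on at least 3 arrays were left out. A model of 36 group means was fitted to 166 samples with limma 3.58.1 (lmFit, eBayes) in R 4.3.3, with Benjamini-Hochberg adjustment over the 12623 genes within each of 38 comparisons; mean effects weight the 5 dosing days equally. The code was tested on simulated data. Shares of all genes were counted for calls only, not for overlap between groups or for unadjusted p. The number of arrays limits the precision. Named genes were the members, the 2 genes most like each over group means, and a choice from the 3 genes called with the largest differences in each list and comparison. The rest of those genes are not given. Ephx2 was named beside Ephx1. The members and lists were chosen with earlier results of these data known. Alternatives covered normalization, filters, probe set choice, the prior, RNA quality, near-identical arrays, the groups fitted, the samples high in acinar markers (chosen after seeing the data) and leaving out each animal. Probe sequences were not used here.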

Additional observations from a re-analysis of the deposited data

Results flagged for a closer look

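Single animals stood apart from the others of their group, by a gap large against the group's range, in 14 of 238 checks of a member in a group; chance alone gives about 1 in 20. In wild type these were Cyp2c29 in treated animal 2014 of day 14 (13.62, others 13.92 to 13.98) and treated animal 2025 of day 91 (13.84, others 13.96 to 13.98), and Cyp2c37 in treated animal 2023 of day 91 (12.83, others 13.14 to 13.19). Cyp2c50 was low in treated animal 2018 of day 28 (13.93, others 14.09 to 14.12). Cyp2c54 was low in control animal 1002 of day 1 (12.12, others 12.49 to 12.61) and high in control animal 1010 of day 7 (12.51, others 12.36 to 12.38). Cyp2c70 was high in treated animal 2012 of day 14 (13.63, others 13.46 to 13.50).

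In the knock-out they were Cyp2c37 in treated animal 4024 of day 91 (10.65, others 11.06 to 11.20), whose array was near-identical to that of animal 4019 labelled day 28, Cyp2c38 in treated animal 4003 of day 1 (7.99, others 8.55 to 8.68), Cyp2c39 in treated animal 4013 of day 14 (5.93, others 5.56 to 5.64) and Cyp2c50 in control animal 3025 of day 91 (11.73, others 12.36 to 12.60). In the humanized line they were Cyp2c37 in treated animal 6019 of day 28 (13.18, others 12.87 to 12.95), Cyp2c50 in control animal 5004 of day 1 (12.89, others 13.15 to 13.25) and Cyp2c54 in control animal 5022 of day 91 (11.46, others 11.98 to 12.16).

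The phenobarbital effect differed between genotypes by limma's test of the difference. Knock-out minus wild type was -0.66 for Cyp2c29, -1.32 for Cyp2c37, -0.62 for Cyp2c50 and -1.28 for Cyp2c54 (adjusted p = 1.91e-26, 3.52e-25, 1.28e-23 and 1.23e-28). Humanized minus wild type was -0.38 for Cyp2c29 (adjusted p = 3.38e-11) and -0.32 for Cyp2c37 (adjusted p = 0.0432). Humanized minus knock-out was 0.28 for Cyp2c29, 1.00 for Cyp2c37, -0.51 for Cyp2c38, 0.64 for Cyp2c50 and 1.17 for Cyp2c54 (adjusted p = 7.12e-07, 6.75e-17, 0.00139, 9.84e-25 and 1.55e-25). For Cyp2c29, humanized minus wild type was -0.50 on day 7 (adjusted p = 0.00668) and -0.51 on day 14 (adjusted p = 0.0011). For Cyp2c37 in the knock-out, the effect of day 91 minus that of day 1 was 0.85 (adjusted p = 0.0211).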

How the results depend on the processing

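Of 98 called member values, 76 stayed called under all 11 alternatives, 79 in every fit without 1 animal and 75 in both; none changed sign, while 25 uncalled values did. Called members on humanized day 119 went from 2 to 1 with quantile normalization, without the filter on dim genes and without the samples high in acinar markers, and to 0 with RNA quality as a covariate or only the groups compared. The humanized minus wild-type mean effect went from 2 to 1 without the filter, with RNA quality and without the acinar-high samples. The knock-out mean effect went from 1 to 0 with a mean level of at least 7, which drops Cyp2c39, and to 2 without the acinar-high samples. Knock-out controls over time went from 1 to 2 with quantile normalization or a mean of at least 7, and to 0 without the acinar-high samples or with only the groups compared. Without the acinar-high samples, wild-type controls over time went from 7 to 2, and knock-out day 91 and knock-out day 91 minus day 1 from 1 to 0. With only the groups compared, which leaves few residual degrees of freedom, these last 2, knock-out day 1 and humanized minus wild type on days 7 and 14 went from 1 to 0, and humanized controls over time from 5 to 1. Leaving out 1 animal gave called members of 2 to 5, 0 to 2 and 4 to 7 for humanized, knock-out and wild-type controls over time. It gave 0 to 2 for humanized day 119 and knock-out day 91, and 0 to 3 for knock-out day 91 minus day 1. It gave 0 to 1 for humanized day 91 minus day 1, humanized minus wild type on days 1 and 7, knock-out day 1 and the knock-out mean, and 1 to 2 for the humanized minus wild-type mean. Genes called between humanized and knock-out controls fell from 2101 to 1364 with a mean of at least 7. With every probe set as a feature, genes called rose from 3971 to 6209 (wild-type mean), 2473 to 4150 (knock-out), 4084 to 6990 (humanized) and 237 to 495 (humanized minus wild type), and between controls from 2829 to 4701, 3541 to 6174 and 2101 to 4017. Single-day counts over all genes moved most with only the groups compared, for example from 651 to 8 on knock-out day 28 and from 435 to 4 on day 91. Humanized day 119 had 27 genes called and 117 with the near-identical arrays kept apart. Beyond fewer genes or samples, the cause was not tested. Cyp2c39 lay near the array median, which limits its values. No paired analysis was possible because the animal numbers are unique and no number is shared between groups.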
